A study of Bos taurus with 22 samples.

Results

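Mucosa scraped from the jejunum of 22 Holstein steers was ordered by how much smooth muscle RNA each scraping held, and the 6 steers at the top of that order were set beside the 6 at the bottom. The order rests on a muscle score, the mean of log2(CPM + 1) of ACTA2, MYH11, DES, TAGLN and CNN1, where CPM is a gene's count scaled to the same library total in every steer. Members were chosen by these measured values, so everything between the muscle-rich and the muscle-poor steers is a description without a test. The 10 steers between them belong to neither side.

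All steers were castrated Holstein males 1 year old or slightly younger, and all received raw corn starch through an abomasal catheter at 3.94 g per kg of body weight per day for 7 d. With the starch, steers received water or casein at 1.30 g per kg per day, and were injected under the skin with glucagon-like peptide 2 (GLP-2) at 100 µg per kg per day or with its vehicle, bovine serum albumin (BSA) in saline. This gave 5 Control steers (water and BSA), 5 GLP-2 steers (water and GLP-2), 6 Casein steers (casein and BSA) and 6 Casein + GLP-2 steers. Each library is 1 steer, made from polyadenylated RNA of a whole scraping, and holds between 8809666 and 28447810 counts.

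Visceral smooth muscle contracts through actin and myosin filaments that are anchored in dense bodies and at the cell surface, and the intestinal wall carries it in the muscle coats, in the thin muscularis mucosae beneath the crypts and as fine strands within the villi. A scraping removes epithelium, lamina propria and a varying amount of the tissue below them, which also holds fibroblasts, vessels, nerves and lymphoid follicles. In such bulk RNA, fewer cells of a type and less RNA per cell cannot be told apart.

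Muscle scores ran from 2.26 to 7.93 over the 22 steers. The muscle-rich steers were Control replicate 5 at 7.93, GLP-2 replicate 1 at 7.00, Casein replicate 5 at 6.95, Control replicate 3 at 6.79, Casein replicate 1 at 6.69 and Casein replicate 3 at 5.70. The muscle-poor steers were Casein replicate 6 at 3.36, Casein + GLP-2 replicate 2 at 2.97, replicate 1 at 2.68, replicate 4 at 2.66 and replicate 3 at 2.35, and Control replicate 2 at 2.26. Just outside the 2 sides stood GLP-2 replicate 5 at 5.34 and GLP-2 replicate 3 at 3.58. The scores formed a gradient, with steers of different treatments next to each other over most of its length.

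**Figure D1:**
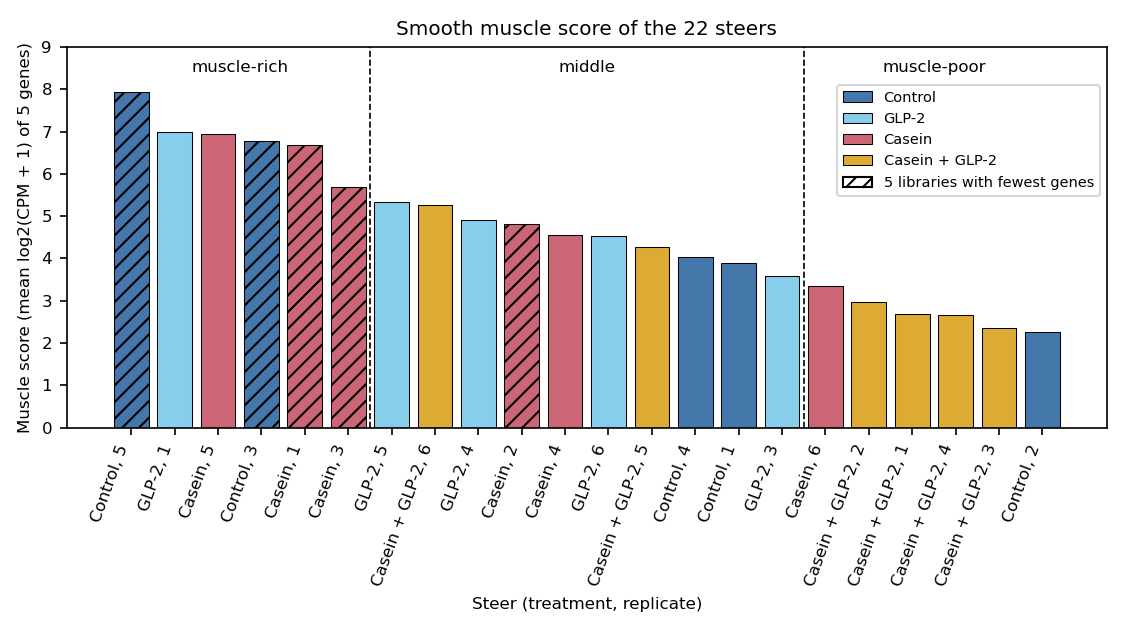
Muscle score (log2 scale) of each of the 22 steers from the highest, 7.93, to the lowest, 2.26, coloured by treatment. Dashed lines bound the 6 muscle-rich and the 6 muscle-poor steers, and hatched bars are the 5 libraries that had the fewest genes with a count, 4 of which are muscle-rich.

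By treatment, the muscle-rich side held 3 Casein, 2 Control, 1 GLP-2 and 0 Casein + GLP-2 steers, and the muscle-poor side held 4 Casein + GLP-2, 1 Casein, 1 Control and 0 GLP-2 steers. Injection therefore stood at 5 BSA and 1 GLP-2 steer on the rich side against 2 BSA and 4 GLP-2 steers on the poor side, which did not pass a 2-sided Fisher's exact test (p = 0.242, adjusted p = 0.485). Infusion stood at 3 casein and 3 water steers against 5 casein and 1 water steer (Fisher's exact test, p = 0.545, adjusted p = 0.545). Body weight was 244.3 ± 19.7 kg (SD, n = 6) on the rich and 246.1 ± 20.1 kg (SD, n = 6) on the poor side (exact permutation test over 924 assignments, 2-sided, p = 0.887). Library totals averaged 902879 counts more on the rich side, also within the spread between steers (exact permutation test, p = 0.716, adjusted p = 0.887).

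A group of 5 libraries stood apart in how many genes had any count, with 14821 to 15681 genes against 17085 to 18602 in the other 17. Their totals, 9003688 to 13505834 counts, lay within the range of the others. All 5 came from BSA steers (Control replicates 3 and 5, Casein replicates 1, 2 and 3), and 4 of them were muscle-rich and 0 muscle-poor. For this reason list medians, and the log2 fold changes that moved by over 1.5 times among the named genes fitted again, are also given without these 4 steers, which leaves GLP-2 replicate 1 and Casein replicate 5 as the muscle-rich side. In addition, 3 of the 4 (Control replicates 3 and 5, Casein replicate 3) had high RNA of B cell follicle genes, and values without those 3 are given where they matter. Control replicates 3 and 5 and Casein replicates 1, 3 and 5 are all the muscle-rich BSA steers. In the deposited counts their columns follow the other 17 as a separate run. What this order stands for is not given, and it cannot be told apart from muscle content in these steers. Casein replicate 5, of this run, stays when the 4 low-detection steers are left out. The part of gene detection, of follicle RNA and of column order in the results was not tested.

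The 5 score genes encode smooth muscle actin (ACTA2), smooth muscle myosin heavy chain (MYH11), the intermediate filament protein desmin (DES) and the actin-binding proteins transgelin (TAGLN) and calponin (CNN1), and they chose the sides. ACTA2 had a lowest, median and highest level of 96.0, 208 and 313 CPM (normalized by trimmed mean of M-values, TMM) in rich steers, against 10.3, 14.6 and 21.5 CPM in poor steers. DES spanned 40.1, 141 and 371 CPM against 2.20, 3.81 and 7.38 CPM. No level of either gene overlapped between the sides. The log2 fold changes were 3.76 (SE 0.29) for ACTA2, 3.97 (SE 0.32) for MYH11, 5.37 (SE 0.48) for DES, 3.94 (SE 0.37) for TAGLN and 4.75 (SE 0.52) for CNN1.

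Counts of DES were 118% of those of ACTA2 in Control replicate 5 and between 41.8% and 81.9% in the other muscle-rich steers, while in the muscle-poor steers they were between 17.3% and 39.8%. Both genes are in the score, so these percentages are drawn from the values that chose the sides and show nothing beyond them. Counts of ACTG2, the enteric smooth muscle actin, were 53.4% of those of ACTA2 in Control replicate 5 and between 18.5% and 32.4% in the other rich steers, which overlapped the 13.8% to 25.0% of the poor steers.

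Other genes were compared on TMM-normalized log2 CPM (prior count 2) and by the edgeR log2 fold change, rich over poor. A gene was compared where at least 6 of the 12 steers had enough counts. Genes near 0 in all poor steers therefore passed only through the rich side, and their fold change could only be above 0. The same holds in reverse for genes near 0 in all rich steers. Of 14112 genes with enough counts, the score genes left out, 1328 (9.41%) were higher in all 6 rich than in all 6 poor steers and 911 (6.46%) were lower in all 6, and the median log2 fold change of all genes was 0.03. With column totals in place of TMM these counts were 1776 and 487, and the median of all genes then stood at 0.23. It stood at 0.14 with the upper quartile. Without the 4 low-detection steers, 2400 of 15104 genes (15.9%) were higher and 1303 (8.63%) lower without overlap. Fewer steers on a side overlap less easily, so these larger counts do not mean a clearer separation. Counts of list members below are to be read against the 9.41% and 6.46% for all 12 steers, and against the 15.9% and 8.63% where those 4 are left out.

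Filament and myosin regulators of smooth muscle were mostly higher in muscle-rich scrapings. All 15 listed genes could be compared, 14 had a fold change above 0, 8 did not overlap between the sides, all higher in rich, and the median log2 fold change was 1.43, or 1.54 without the 4 low-detection steers. ACTG2 (ENSBTAG00000015441, chromosome 11, 10736902 to 10761462, minus strand, ARS-UCD1.2) had a lowest, median and highest level of 17.7, 51.0 and 167 CPM in rich and of 1.42, 2.88 and 4.41 CPM in poor steers. That is a log2 fold change of 4.53 (SE 0.49), and the lowest rich steer stood well above the highest poor one. LMOD1, the actin nucleator leiomodin (log2 fold change 4.87, SE 0.68), tropomyosin TPM2 (3.00, SE 0.36) and caldesmon CALD1 (2.97, SE 0.36) were separated in the same way.

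Members of that list which many other cells also make were closer to 0. MYL6, the non-muscle and smooth muscle essential light chain, had a log2 fold change of 0.19 (SE 0.28), TAGLN2 one of 0.55 (SE 0.23) and the myosin light chain kinase gene MYLK one of 0.23, all with overlapping sides. MYL9, the regulatory light chain, was between them at 83.1, 139 and 228 CPM in rich and 36.4, 56.5 and 78.7 CPM in poor steers, a log2 fold change of 1.43 (SE 0.28). Its sides came close without overlapping.

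Among 26 listed genes of dense bodies, caveolae and adhesion, PDLIM7 and DMD had no row, LDB3, ITGA8, SGCD and NEXN had too few counts, and 20 were compared. Of these, 17 had a fold change above 0 and 10 did not overlap, all higher in rich, with a median log2 fold change of 2.14 (2.30 without the 4 low-detection steers). PDLIM3, a Z-disc and dense body protein, had 19.7, 26.1 and 43.2 CPM in rich against 0, 0.817 and 1.48 CPM in poor steers (log2 fold change 5.37, SE 0.60). CAVIN1, a coat protein of caveolae, had 50.8, 106 and 157 CPM against 3.62, 6.25 and 11.5 CPM (3.96, SE 0.33). The laminin-binding integrin ITGA7 (5.04, SE 0.83) and FHL1 (3.75, SE 0.34) were likewise apart, while SVIL and LPP had values of -1.19 and -1.14 and vinculin, VCL, one of 0.08, all with overlap.

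**Figure D2:**
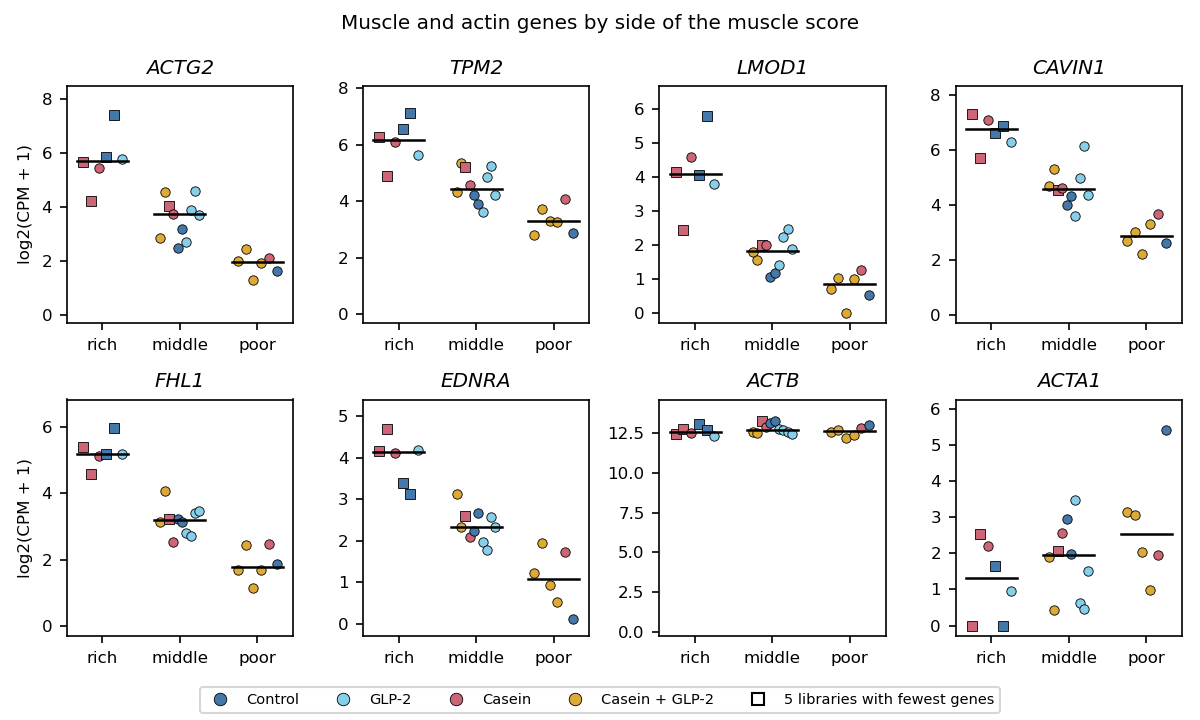
Level of 8 genes as log2(CPM + 1), CPM normalized by TMM, in the 6 rich, 10 middle and 6 poor steers, with a line at the median. ACTG2, TPM2, LMOD1, CAVIN1, FHL1 and EDNRA are higher in every rich than in every poor steer, ACTB is level, and ACTA1 is highest in a poor steer, at 41.8 CPM before the log; squares are the 5 libraries that had the fewest genes with a count.

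Calcium handling and ion channel genes of smooth muscle separated less. JPH2 had no row, RYR2, TRPC4, CASQ2 and KCNAB1 had too few counts, and of the 10 compared genes 7 had a fold change above 0 and 0 were without overlap, with a median log2 fold change of 0.63 (0.73 without the 4 low-detection steers, where 5 of 13 did not overlap). Phospholamban, PLN, which restrains the calcium pump of the sarcoplasmic reticulum, had 0.591, 7.03 and 14.2 CPM in rich and 0.140, 0.673 and 1.16 CPM in poor steers (3.48, SE 0.66). A single rich steer, Casein replicate 3, reached into the poor range. CACNA1C, the L-type calcium channel, was at 2.29 (SE 0.50) and KCNMB1, a subunit of the large-conductance potassium channel, at 1.44 (SE 0.37).

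Of 15 receptors and cyclic GMP genes, 7 (CHRM2, TACR2, OXTR, PTGFR, HTR2B, ADRA1A and PRKG1) had too few counts, 6 of the 8 compared had a fold change above 0 and 2 did not overlap, both higher in rich. The list median was 0.84, and 1.43 without the 4 low-detection steers. The endothelin receptor EDNRA had 7.75, 16.6 and 24.7 CPM in rich and 0.0881, 1.13 and 2.86 CPM in poor steers (3.55, SE 0.55), and GUCY1A1, a subunit of the nitric oxide receptor, was at 2.25 (SE 0.33). The serotonin receptor HTR4 was lower in rich, at 18.3, 26.6 and 47.6 against 39.4, 69.2 and 109 CPM (-1.24, SE 0.26, and -0.72 without the 4 low-detection steers), with some overlap.

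Among 16 transcription regulators, BARX1 and PRDM6 had 0 counts in all steers and MYOCD, NKX3-2, TSHZ3 and HAND1 too few to compare. The mesenchymal factors FOXF1 (3.07, SE 0.30), FOXF2 (3.48, SE 0.34) and NKX2-3 (3.23, SE 0.34) were higher in every rich than in every poor steer, and they were the 3 without overlap among 10. The list median was 0.74 (0.44 without the 4 low-detection steers). The broadly made factor SRF was at 0.60 and its partners MRTFA and MRTFB at 0.35 and -0.38. Myocardin, MYOCD, the smooth muscle partner of SRF, had 105 counts over the 6 rich and 20 over the 6 poor steers and was at 0 in 2 rich steers, too few to be compared at this depth.

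The actin family itself split by type. ACTB and ACTG1, the cytoplasmic actins, had log2 fold changes of 0.04 (SE 0.24) and -0.05 (SE 0.25) with fully overlapping sides, and -0.22 and -0.30 without the 4 low-detection steers. Per gene length, their median FPKM in rich steers, 3362 and 1597, stood far above the 75.6 FPKM of ACTA2 and the 29.8 FPKM of ACTG2. Skeletal actin, ACTA1, had 0, 1.54 and 4.79 CPM in rich and 0.974, 5.20 and 41.8 CPM in poor steers (-2.43, SE 1.01), and Control replicate 2 alone made up the highest value. Cardiac actin, ACTC1, had 75 counts over the rich and 1 over the poor steers, with 3 and 5 steers at 0. Actin genes are alike in sequence, and how shared reads were split between them is not known here.

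Connective tissue genes separated the sides more fully than most muscle lists. Of 28 fibroblast and fibrillar matrix genes, MFAP5 had too few counts, 26 of the other 27 had a fold change above 0 and 25 did not overlap, all higher in rich, with a median log2 fold change of 3.54 (3.58 without the 4 low-detection steers, where 26 did not overlap). The fibrillar collagen gene COL3A1 had 490, 632 and 1166 CPM in rich and 38.2, 86.3 and 144 CPM in poor steers (3.06, SE 0.36). DPT, dermatopontin, had 11.0, 35.1 and 86.8 against 0, 0.350 and 0.617 CPM (7.02, SE 0.65), and the complement gene C7 was at 4.95 (SE 0.54). Neither gene had a rich steer near the poor range. PI16, a marker of adventitial fibroblasts, was the 1 member below 0, at -0.29.

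Basal lamina genes followed. LAMA2 had no row, all 12 others were above 0 and 9 did not overlap, with a median of 2.77 (3.21 without the 4 low-detection steers). Collagen COL4A2 was at 4.01 (SE 0.37), laminin LAMA4 at 3.32 (SE 0.34) and LAMA5 at 2.96 (SE 0.38). HSPG2 and AGRN, the heparan sulfate proteoglycans perlecan and agrin, stood apart from the list at 0.43 and 0.14.

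Mesenchymal growth factors and antagonists that act on the crypt were higher in rich scrapings. FGF10, HGF, NRG1, RSPO1, RSPO2 and RSPO3 had too few counts, all 14 compared genes were above 0 and 8 did not overlap, with a median of 2.32 (3.08 without the 4 low-detection steers). Among them GREM1, CHRDL1 and IGFBP5 (650 and 9 counts) passed the filter only through the rich steers, so their direction was fixed by it. GREM1, a secreted inhibitor of bone morphogenetic proteins, had 2.83, 22.5 and 59.0 CPM in rich steers and 0, 0.0351 and 0.0885 CPM in poor steers. It held 2271 counts over the rich and 3 over the poor side, so its fitted log2 fold change of 9.06 rests on almost no reads in the poor steers. CHRDL1, a further inhibitor of this kind, held 1110 and 3 counts.

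The GLP-2 receptor gene GLP2R had 2.82, 16.4 and 37.9 CPM in rich and 1.63, 3.70 and 5.97 CPM in poor steers. Its sides overlapped, with a log2 fold change of 2.33 (SE 0.56), and 3.22 without the 4 low-detection steers. WNT2B, a mesenchymal Wnt ligand, was at 3.68 (SE 0.34) and FGF7 at 2.00 (SE 0.50), both without overlap, whereas IGF1 was at 0.44 (SE 0.47) with overlap. Between injections, GLP2R did not pass edgeR's quasi-likelihood test (log2 fold change -0.28, SE 0.48, adjusted p = 0.700).

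**Figure D3:**
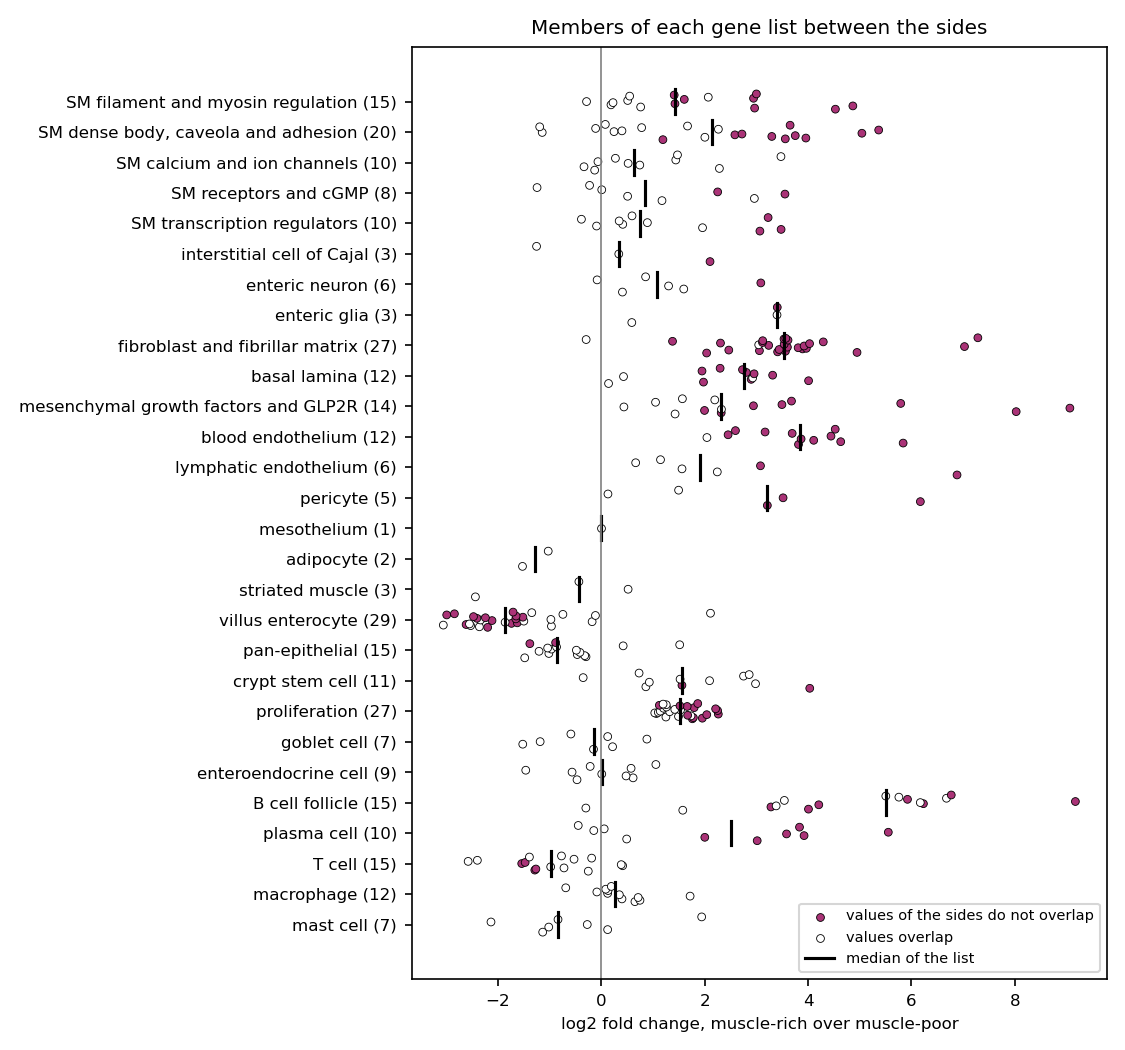
Log2 fold change, muscle-rich over muscle-poor, of each compared member of 28 gene lists, with the number compared in brackets and a bar at the list median. Filled points do not overlap between the sides; connective tissue and vessel lists lie almost wholly right of 0, and the villus enterocyte list lies left of it with a median of -1.86. SM is smooth muscle.

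Blood endothelial genes had the highest list median among the lists outside lymphoid tissue, the score genes left out. All 12 blood endothelial genes were above 0 and 11 did not overlap, with a median of 3.84 (3.91 without the 4 low-detection steers, where all 12 did not overlap). VWF, von Willebrand factor of endothelial storage granules, had 66.0, 88.1 and 147 CPM in rich and 2.48, 3.78 and 7.38 CPM in poor steers (4.53, SE 0.30). CLDN5, the endothelial tight junction protein, was at 5.84 (SE 0.69) and the receptor KDR at 4.44 (SE 0.50).

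Of 6 lymphatic genes all were above 0 and 2 did not overlap (median 1.90, and 2.24 without the 4 low-detection steers). The chemokine CCL21 had 16.3, 124 and 426 against 0.213, 1.26 and 4.22 CPM (6.88, SE 1.02), but its log2 fold change was 3.72 without the 4 low-detection steers. Among 7 pericyte genes ABCC9 and HIGD1B had too few counts, and all 5 others were above 0, 3 without overlap (median 3.21, and 3.79 without those steers). KCNJ8 (6.17, SE 0.85) and MCAM (3.52, SE 0.35) led them.

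Genes of the enteric nervous system were mostly too low to compare. For neurons, 13 of 19 listed genes had too few counts, ELAVL3 among them at 0 in all steers, 5 of 6 compared genes were above 0 and 1, STMN2, did not overlap (3.09, SE 0.37), with a list median of 1.08, and 0.38 without the 4 low-detection steers. For glia, 3 of 11 were compared and S100B was apart at 11.6, 20.4 and 29.6 against 0.709, 1.80 and 3.58 CPM (3.40, SE 0.40), while the defining glial genes SOX10 and GFAP did not pass the filter. Of the interstitial cells of Cajal, the pacemakers of the muscle coat, 3 of 5 listed genes were compared (GPR20 and LIX1 had too few counts), ANO1 was higher in every rich steer (2.10, SE 0.34) and KIT, which mast cells also carry, was at -1.25 (SE 0.34) with overlap. Without the 4 low-detection steers the glial median was 3.24, the Cajal cell median 0.83 instead of 0.34, and KIT at -0.68.

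Markers of the outer and neighbouring tissues had 0 members without overlap between the sides. Of 6 mesothelial genes only UPK3B was compared, at -0.00 (SE 0.43), and of 5 adipocyte genes PLIN1 and CIDEC, at -1.02 and -1.52, both with overlap, and LEP had 0 counts. UPK3B was at -0.42, PLIN1 at -0.32 and CIDEC at -0.40 without the 4 low-detection steers. Of 14 striated muscle genes 11 were not compared, MYH2 and MYL1 among them at 0 counts in all steers. The rest, ACTA1, TNNI2 and TNNT2, had a median of -0.43, or 0.31 over 5 genes without the 4 low-detection steers. No red blood cell gene had enough counts in 6 steers, HBA1 having no row and SLC4A1 0 counts.

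Enterocyte genes of the villus were lower in muscle-rich scrapings. Of the 29 genes matched by 28 symbols (SLC2A5 names 2), 1 was above 0 and 14 did not overlap, all lower in rich, with a median log2 fold change of -1.86. The sodium-glucose transporter SLC5A1 had 60.5, 182 and 551 CPM in rich and 952, 1782 and 2859 CPM in poor steers (-2.84, SE 0.52), and SLC2A2, the basolateral glucose carrier, 2.79, 14.8 and 79.1 against 94.8, 239 and 308 CPM (-2.99, SE 0.67). The sides did not overlap for either. Without the 4 low-detection steers the log2 fold changes were -1.84 for SLC5A1 and -1.75 for SLC2A2.

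The size of the enterocyte difference went with the low-detection libraries. As a mean log2 CPM of the list, the 4 low-detection muscle-rich steers stood at 5.49, 5.99, 6.79 and 6.93, whereas the other 2 stood at 8.38 and 8.69, beside 8.68 to 9.66 in the poor steers. Without the 4 steers the list median was -1.06 and 25 of 29 genes were below 0. Whether detection or muscle content went with the lower enterocyte RNA cannot be told apart in those 4 libraries.

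Epithelial genes shared by all cell types of the epithelium differed less. Of 15, 2 were above 0 and 2 did not overlap, both lower in rich (median -0.86, and -0.17 without the 4 low-detection steers). KRT20 had 551, 1150 and 2839 against 3252, 3564 and 5051 CPM (-1.38, SE 0.37), and E-cadherin, CDH1, was at -1.48 (SE 0.34). KRT19 was at 1.52 (SE 0.41). KRT20 was at -0.57 and CDH1 at -0.74 without the 4 low-detection steers.

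Stem cell genes of the crypt and proliferation genes were mostly higher in muscle-rich scrapings. LGR5 and TNFRSF19 had too few counts, 10 of the other 11 stem cell genes were above 0 and 2, ASCL2 and CD44, did not overlap (median 1.56, and 1.81 without the 4 low-detection steers). ASCL2, a transcription factor of stem cells, was at 4.03 (SE 0.74). All 27 proliferation genes were above 0 and 13 did not overlap (median 1.52, 1.09 without the 3 follicle-high steers and 1.00 without the 4 low-detection steers). The replication helicase subunit MCM2 had 43.6, 109 and 195 against 20.6, 21.7 and 30.4 CPM (2.25, SE 0.32). Its log2 fold change was 1.55 without the 3 follicle-high and 1.09 without the 4 low-detection steers. Which cells held the proliferation RNA was not tested. Goblet cell genes (7 of 11 compared, MUC2, FCGBP and ZG16 without a row, median -0.15) and enteroendocrine genes (9 of 16 compared, median 0.01) had 0 members without overlap, and both medians changed sign with the scaling. They were 0.13 and 0.05 without the 4 low-detection steers.

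B cell follicle genes had the highest list median, and it came from few steers. Of 16 genes, PAX5 did not pass the filter, 14 of 15 were above 0 and 7 did not overlap (median 5.50). CXCL13, the chemokine that draws B cells into follicles, had 644 CPM in Casein replicate 3, 218 in Control replicate 3, 71.5 in Control replicate 5, 9.21 in Casein replicate 1, 1.99 in Casein replicate 5 and 1.59 in GLP-2 replicate 1, against 0.140 to 0.843 CPM in the poor steers. The list median was 1.72 without the 3 follicle-high steers and 0.97 without the 4 low-detection steers.

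Plasma cell genes were split. JCHAIN, the joining chain of secreted antibody, had 1597, 1804 and 5102 against 49.1, 131 and 374 CPM (3.92, SE 0.54, and 3.45 without the 4 low-detection steers), and 6 of 10 genes did not overlap (median 2.51, and 1.64 without those steers), whereas XBP1 and PRDM1, which other cells also make, were at -0.44 and -0.14. Of 15 T cell genes, 13 had a fold change below 0 and 4 were lower without overlap (median -0.98, and -0.87 without those steers). CD8A, the co-receptor of cytotoxic T cells, had 26.2, 45.2 and 57.6 against 81.6, 124 and 176 CPM (-1.54, SE 0.21). Macrophage genes (12 compared, MARCO too low, median 0.27) and mast cell genes (7 compared, CMA1 without a row, median -0.83) had 0 members without overlap, and without those steers their medians were 0.49 and -0.42.

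**Figure D4:**
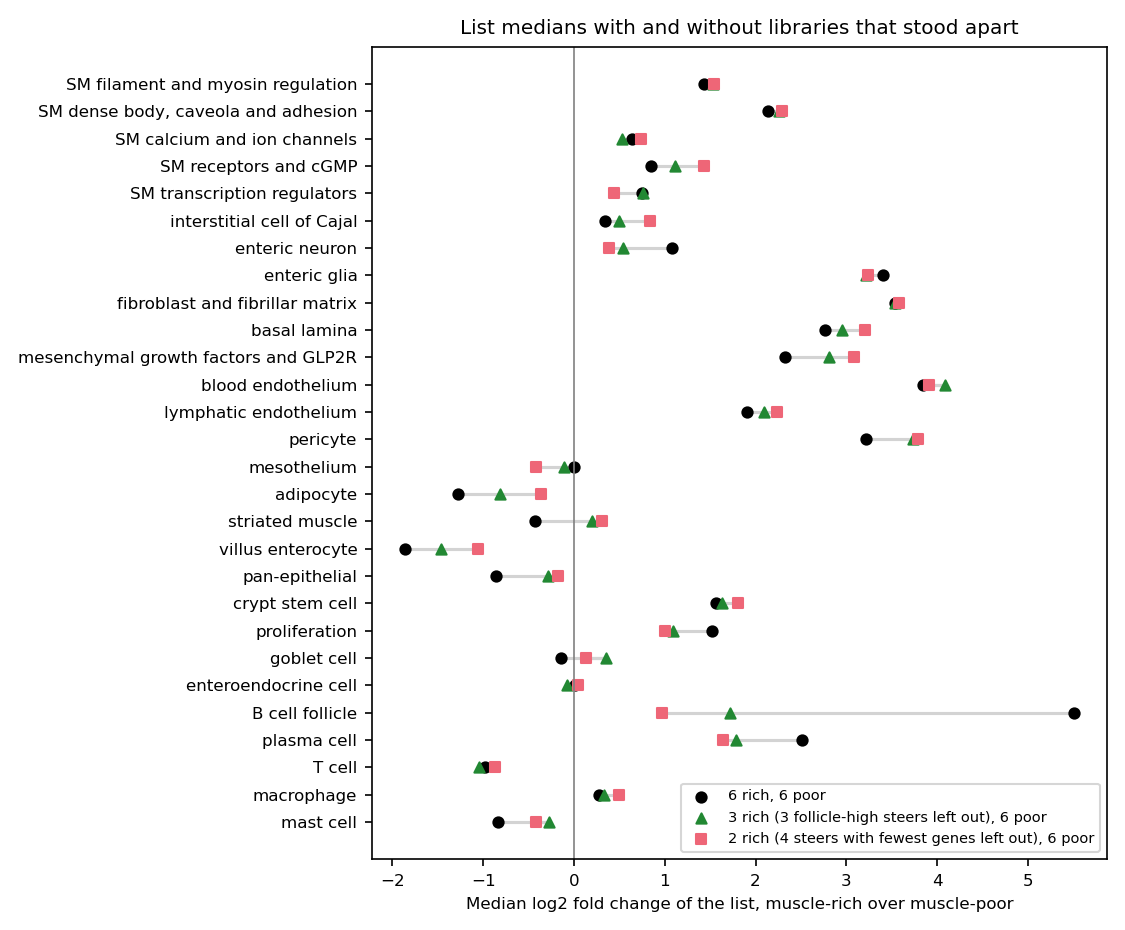
Median log2 fold change of each gene list, muscle-rich over muscle-poor, for all 12 steers, without the 3 follicle-high rich steers and without the 4 rich steers whose libraries had the fewest genes. Most muscle, matrix and vessel medians move little, the B cell follicle median moves from 5.50 to 0.97 and the villus enterocyte median from -1.86 to -1.06. SM is smooth muscle.

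The 10 genes without overlap that had the largest fold change, with a mean of at least 1 CPM, were CXCL13, GREM1, CCL19, CHRDL1, SHISA3, MADCAM1, SULF1, CDH2, SERTM1 and THY1. MADCAM1, the addressin on mucosal venules, had 6.86, 18.6 and 56.5 CPM in rich and 0, 0.106 and 0.177 CPM in poor steers, and CCL19, a chemokine of lymphoid stroma, held 3857 and 7 counts. CDH2, N-cadherin, held 509 counts over the rich and 2 over the poor steers, so it was at least 159-fold higher against a floor of 3 counts over the poor side. Without the 4 low-detection steers the log2 fold change was 2.66 instead of 9.17 for CXCL13, 4.72 instead of 8.82 for CCL19, 4.57 instead of 7.28 for THY1 and 6.39 instead of 9.06 for GREM1, and between 5.66 (SHISA3) and 7.14 (SULF1) for the other 6. All 10 were near 0 in the poor steers, with at most 21 counts over the side for each, so they entered the comparison through the rich steers.

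The 10 with the lowest fold change were HEPHL1, BCO1, SLC26A5, MUC13, B3GNT6, GPR55, CXCL17, AGMO, SLC2A2 and FGG. BCO1, the enzyme that cleaves beta-carotene, had 1.32, 45.5 and 89.5 CPM in rich and 142, 581 and 1375 CPM in poor steers (-3.82, SE 0.81, and -3.78 without the 4 low-detection steers). MUC13, a mucin of the brush border membrane, had 30.8, 159 and 378 against 893, 1510 and 2611 CPM (-3.10, SE 0.52, and -2.19 without those steers). B3GNT6, which builds core 3 glycans of mucins, had 0, 3.44 and 218 against 289, 415 and 602 CPM. Its log2 fold change of -3.10 was -1.97 without those steers, that of HEPHL1 -2.43 instead of -3.91 and that of AGMO -1.87 instead of -2.99.

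Over all 22 steers, 10 genes other than the score genes ran closest to the score. ACTG2 had the highest Pearson correlation of log2 CPM with the score (r = 0.98), before FSTL3 and CAVIN1 (both r = 0.97), TPM2, FAM171A1, LTBP4, WNT2B, EHD2, ADAMTS1 and VWF (r = 0.96 to 0.97). These are descriptions over 22 libraries that include those which define the sides. Along with 2 filament genes, the 10 hold LTBP4 and ADAMTS1 of the extracellular matrix, EHD2 and CAVIN1 of caveolae and VWF of endothelium.

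**Figure D5:**
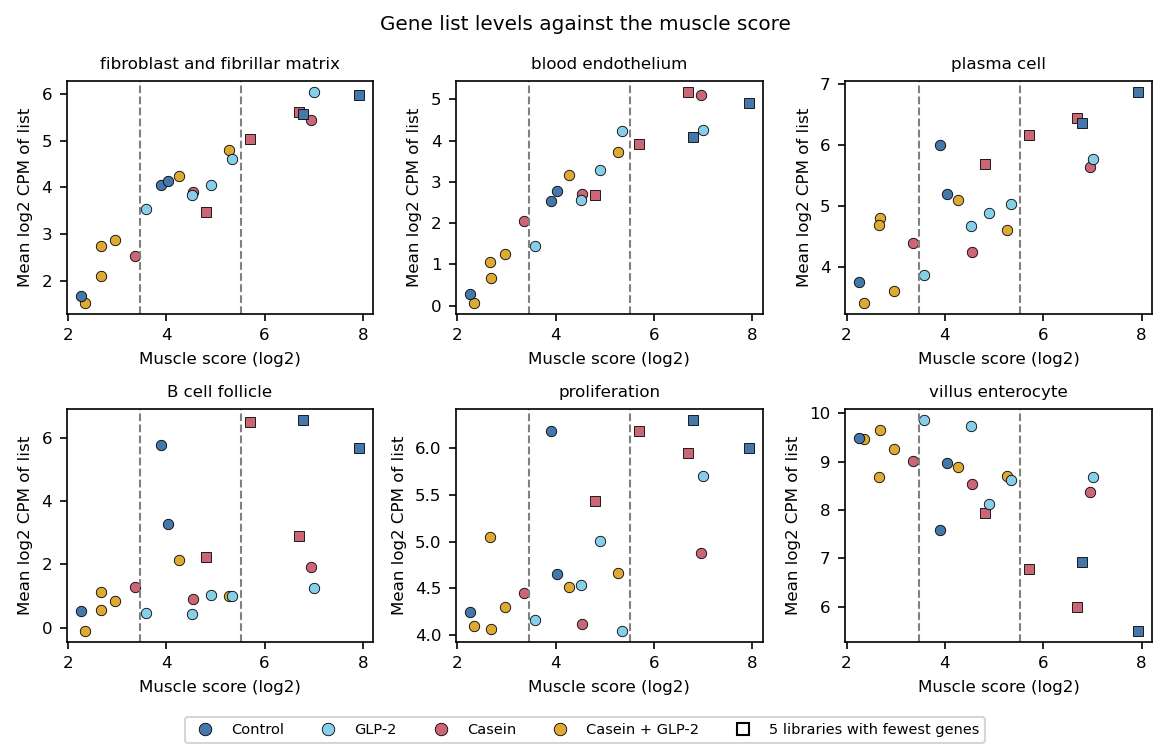
Mean log2 CPM of 6 gene lists against the muscle score in each of the 22 steers, with dashed lines at the bounds of the rich and poor sides and squares for the 5 libraries that had the fewest genes. Fibroblast levels run from 1.51 to 6.04 and endothelial levels from 0.05 to 5.18, both higher in every rich than in every poor steer, while B cell follicle and villus enterocyte levels set single steers apart.

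The 10 middle steers allowed a test, since they were used by neither side. Their scores ran from 3.58 to 5.34, they comprise 4 BSA and 6 GLP-2 steers, and 1 of them, Casein replicate 2, is a low-detection library. Each gene's counts, with TMM normalization, were fitted on the score in edgeR, over 14804 genes besides the score genes. With p of the quasi-likelihood test adjusted over all genes fitted, 0 genes passed an adjusted p of 0.05 in either direction (0% higher, 0% lower, smallest adjusted p = 0.0931). Unadjusted, 564 genes (3.81%) were higher and 573 (3.87%) lower with the score at p of at most 0.05, and a DESeq2 Wald test of the same slope called 96 genes.

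ACTG2 had the smallest p in the edgeR test, at a slope of 1.29 log2 units per unit of score (SE 0.19), and tended to be higher with the score (adjusted p = 0.0931, and 3.21e-07 with DESeq2). In edgeR its adjusted p was 0.290 with injection and infusion as covariates and 0.310 with the replicate block. It was 0.0572 with the upper quartile, and 0.0189 with the follicle score as a covariate, a setting added after the data had been examined. With 1 steer left out it ran from 0.0647 to 0.551, at slopes of 1.22 to 1.42. Whether ACTG2 shares reads with ACTA2, a score gene, is not known here. CAVIN1 (1.16, SE 0.19), LTC4S, the leukotriene C4 synthase (1.37, SE 0.23), the matrix gene TNXB (1.48, SE 0.25) and IQANK1 (1.28, SE 0.22) came next with adjusted p of 0.124 to 0.125. Of these, IQANK1 was at 0.15 (SE 0.42) between the sides, and -0.00 without the 4 low-detection steers. The 5 genes with the smallest p among lower slopes were ACTA1 (-2.39, SE 0.50), CPNE2, SLC26A3, TINAG and PAX5, with adjusted p of 0.240 to 0.292 in edgeR's test. Between the sides ACTA1 was at -2.43, but CPNE2 was at 2.77, and at 2.12 without the 4 low-detection steers. The other genes were too low for a fold change. PAX5 held 764 counts over the rich and 7 over the poor steers, SLC26A3 63 and 26, and TINAG 25 and 52.

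List by list, the middle steers can be read beside the sides, with the median slope of all genes at -0.03. Of 12 blood endothelial genes 12 had a slope above 0 and 11 had an unadjusted p of at most 0.05, all higher, against the 3.81% of all genes. For 22 dense body and adhesion genes 19 slopes were above 0 and 7 had p of at most 0.05, for 15 filament genes 13 and 4, for 27 fibroblast genes 25 and 6, for 12 basal lamina genes 11 and 5, and for 6 lymphatic genes 6 and 4, all higher, while 1 further fibroblast gene, THY1, was lower with such a p. For none of these genes did the adjusted p pass. Calcium and ion channel genes had 9 of 11 slopes above 0 and 0 with such a p.

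Villus enterocyte genes had 27 of 29 slopes below 0 and 5 with p of at most 0.05, all lower (median slope -0.40, and -0.39 without Casein replicate 2). Mast cell genes had all 7 slopes above 0 and 3 with such a p, although their median was below 0 between the sides. Proliferation and follicle genes had 24 of 27 and 16 of 16 slopes below 0 in the middle steers. Of these steers Control replicate 1 had the highest follicle list score, 5.76 log2 CPM, and Control replicate 4 the next, 3.28. Without Control replicate 1, 25 of 27 proliferation slopes were above 0, while 12 of 15 follicle slopes were below 0, with a median of -0.54 instead of -2.41. Control replicate 4 stayed in that fit. Both mesothelial genes tested, MSLN (slope 2.28, SE 0.90) and UPK3B (0.66, SE 0.26), had slopes above 0 with an unadjusted p of at most 0.05 and adjusted p of 0.583 and 0.588 in edgeR's test.

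Injection is a label that did not choose the steers, so the muscle genes could be tested by it. All 5 score genes were lower in the 11 GLP-2 than in the 11 BSA steers, with log2 fold changes of -1.01 (ACTA2, SE 0.54), -0.81 (MYH11, SE 0.59), -1.74 (DES, SE 0.74), -1.02 (TAGLN, SE 0.58) and -1.46 (CNN1, SE 0.73), and none passed edgeR's quasi-likelihood test (adjusted p from 0.104 for DES to 0.329 for MYH11). Without GLP-2 replicate 1, the 1 muscle-rich GLP-2 steer, MYH11 (-1.61, adjusted p = 0.0410) and DES (-2.41, adjusted p = 0.0349) passed. That steer had the highest MYH11 of all 22, so leaving it out depends on the values being tested and shows nothing beyond that choice. Of the 22 fits that each left out 1 steer, it was the only 1 in which a score gene passed. Without the 5 low-detection BSA steers, the differences were between -0.05 (TAGLN) and -0.56 (DES).

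In that comparison 715 of 13928 genes (5.13%) were higher and 1166 (8.37%) lower with GLP-2. Of the smooth muscle lists, MYL9 (-0.80, SE 0.23, adjusted p = 0.0310), ITGA7 (-2.49, adjusted p = 0.0368) and MEF2C (-1.35, adjusted p = 0.0336) were lower, and SVIL, HTR4, PDE5A and MRTFB were higher, which is 7 of 62 genes tested. Between the sides MEF2C was at 1.96, but at 0.45 without the 3 follicle-high steers and 0.44 without the 4 low-detection steers. B cell follicle genes had 13 of 14 called, all lower with GLP-2. Blood endothelium had 0 of 12, basal lamina 0 of 12, and fibroblast genes 1 of 27 (THY1, lower). The same fit without the 5 low-detection steers called 0 genes, with the replicate block as a term 0 genes, and with the muscle score as a covariate it also called 0 of 15401 genes (smallest adjusted p = 0.0577, with 3361 genes at an unadjusted p of at most 0.05).

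Casein against water, pooled over injection, called 0 of 14096 genes (0% higher, 0% lower, smallest adjusted p = 0.994, with 474 genes at an unadjusted p of at most 0.05 in edgeR and 0 called by DESeq2). The score genes were lower with casein by between 0.62 (ACTA2) and 1.13 (CNN1) on the log2 scale, all with an adjusted p of 0.994. Within the BSA steers alone, 5 rich against 2 poor, list medians were 1.33 for filament, 3.64 for fibroblast, 3.41 for blood endothelial and -2.37 for enterocyte genes, beside 1.43, 3.54, 3.84 and -1.86 for all 12 steers.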

How the data were processed

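RNA of scraped jejunal mucosa was sequenced from 22 steers. Per the submitters' processing notes, the authors used HISAT2 2.0.5, StringTie 1.3.3b, featureCounts 1.5.0-p3, DESeq2 1.20 and the genome build ARS-UCD1.2. The authors deposited raw counts of 27570 genes per steer, whole numbers that are not normalized, and FPKM values made from them, which served as an alternative and for levels per length. Of these genes, 21855 had a count.

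Scores used the deposited counts and column totals with a pseudocount of 1. TMM-normalized CPM, fold changes and quasi-likelihood tests came from edgeR 4.0.16 under R 4.3.3 (filterByExpr, minimum count 10, Benjamini-Hochberg adjustment, threshold 0.05, tendency up to 0.1), and DESeq2 1.42.0 gave alternatives. SE is the fold change divided by the root of the F statistic. The scripts were tested on simulated data. The members, the 30 gene lists and the tests were chosen with earlier results of these data known. Named genes are the score genes, the 10 highest and 10 lowest without overlap, up to 4 members per list with the largest fold and those at 0 in all steers, the 5 smallest p per direction of the slope, the 10 closest to the score, GLP2R, MYOCD and the actins, and others were added after their values were seen. Alternatives without follicle-high or low-detection steers, within BSA steers and with the follicle score were added after the data had been examined. Reads were counted without molecular identifiers, so what depth allows covers counting error only, and library totals lay between 8809666 and 28447810. No value column lacked a sample. Some list members are not reported here.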

Additional observations from a re-analysis of the deposited data

Results flagged for a closer look

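In each side of 6 steers, the muscle score, the list scores and the named genes were searched for a single steer far from the other 5 (140 groups of values). By chance about 1 in 20 such groups is marked, and 7 (5%) were. No explanation was weighed.

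HEPHL1 stood out in the muscle-rich side, at 0.13 log2 CPM in GLP-2 replicate 1 against the lowest possible value of -2.84 in the other 5. In the muscle-poor side, Casein + GLP-2 replicate 1 had a mesothelium list score of 0.75 log2 CPM, below the next at 2.56. Casein + GLP-2 replicate 2 had an adipocyte list score of -0.37, below the next at 3.47. Casein replicate 6 had the highest CXCL13 of the poor side, at -0.0243 log2 CPM, and the 1 count of ACTC1 there, at -2.03. Casein + GLP-2 replicate 4 held the CDH2 counts of that side, at -1.66 log2 CPM. Control replicate 2 had the lowest SLC2A2 of the poor side, at 6.57 log2 CPM against 7.77 for the next.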

How the results depend on the processing

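The same 12 steers were chosen when the score used TMM-scaled CPM, FPKM or z-scores or left out any 1 of its genes. Genes without overlap, 1328 higher and 911 lower in rich, numbered 487 lower with column totals, 2012 higher without the 3 follicle-high steers, 2400 higher without the 4 low-detection steers, and 2525 higher and 2623 lower within BSA steers. Sets of fewer steers overlap less easily, so such counts cannot be compared with those of all 12. Leaving out 1 steer gave 1392 to 1811 higher and 930 to 1693 lower, the last without GLP-2 replicate 1, and a filament list median of 1.37 to 1.57. The filament median was 1.29 with the replicate block. Slope calls, 0 in edgeR, were 96 by DESeq2, 1 with no filter on low counts (ENSBTAG00000050032), 2 with the replicate block (JSP.1 and TAT), 47 with the follicle score as a covariate and 0 to 1 without 1 steer (ENSBTAG00000050846 without Casein replicate 2, PAX5 without GLP-2 replicate 3). The cause was not tested. GLP-2 calls, 1881, were 3002 by DESeq2, 0 with the muscle score as a covariate, 0 without the 5 low-detection steers, 0 with the replicate block, and 634 (without Casein + GLP-2 replicate 3) to 3516 (without Control replicate 2) when 1 steer was left out. Casein calls were 0 in all 22 such fits. Body weight, 1.77 kg lower in rich steers, was 4.60 kg higher with 4 steers a side. Replicate numbers are the study's blocks, formed by body weight. Over 30 pairs of a block the correlation of deviations from the treatment means ran from -0.46 to 0.39 and was above 0.1 in 13, so the block stayed an alternative. Goblet and enteroendocrine medians were 0.03 and 0.26 with column totals and -0.18 and -0.03 with DESeq2 size factors. Genes under about 10 counts per steer could not be compared at this depth.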
